A study of Mus musculus with 4 samples.

Results

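The transcripts of 10 genes of the integrated stress response, Atf3, Atf4, Atf5, Ddit3, Ddit4, Trib3, Chac1, Asns, Sesn2 and Ppp1r15a, were followed from naive CD4+ T cells into the first 3 h of culture under conditions that induce regulatory T cells. They were taken as every row of the scanner files that carries one of these gene names. This gave 14 of the 56605 probes and 10 of the 32498 genes on the array. Of the 14 probes, 12 were well above background on all 4 arrays and all 14 on at least 1.

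There were 4 groups with 1 single-colour Agilent array each: naive T and iTreg 3 h cells of WT, and naive T and iTreg 3 h cells of Nr4a-TKO. Here iTreg stands for induced regulatory T cells and TKO for the knockout of Nr4a1, Nr4a2 and Nr4a3 together. Nr4a-TKO mice were of the C57BL/6J strain with floxed Nr4a1 and Nr4a2 alleles and the Nr4a3-/- allele. Mice of these strains were 6 to 8 weeks old, and the Cre line is not given in the sources used here. The naive cells were sorted from spleen and lymph nodes as CD4+, CD25low, CD44low, CD62L-high and Foxp3-. All came from bone marrow chimeras made in Rag2-/- recipients, which lack their own T cells, and were sorted 6 weeks after marrow transfer. For Nr4a-TKO the recipients had been given knockout marrow mixed with WT marrow, and for WT they had been given WT marrow alone, so the kind of chimera and the genotype cannot be told apart. The iTreg groups were the same kinds of cell cultured for 3 h with anti-CD3 at 2 µg/ml, anti-CD28 at 0.5 µg/ml, IL-2 at 10 ng/ml, TGF-β1 at 0.2 or 0.5 ng/ml and antibodies to IFN-γ and IL-4. No array of stimulated cells without TGF-β1 was analysed here, so the effects of T cell receptor stimulation, of cytokines and of culture cannot be told apart.

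The integrated stress response starts when a kinase phosphorylates the translation factor eIF2, in answer to unfolded proteins, missing amino acids, viral RNA or lack of haem. Most translation then slows, while the mRNA of the transcription factor ATF4 is translated more, and ATF4 turns on genes for amino acid synthesis and uptake, redox balance and, through CHOP, cell death. Activated T cells are known to draw on ATF4 for amino acid uptake and one-carbon metabolism. Because ATF4 is set largely at the level of translation, the mRNA values given here say nothing about the amount of the protein.

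ATF4 binds composite C/EBP-ATF response elements, for which the letters TGATGNAA were searched on both strands of the 250 bases before each RefSeq gene start on GRCm38.p6. All 10 genes matched an entry of the promoter table, with 11 promoters because Atf5 has more than 1 start. The letters were found in the promoters of 3 of the 10 genes, against 3.91% of 27025 genes with promoters of the same length. These 3 sequences, of Asns, Atf3 and Chac1, are shown because they hold the element. Each of the 3 genes rose more than 2-fold at 3 h, though for Asns and Chac1 this depended on the background correction. Atf5, Trib3 and, in WT, Sesn2 also rose more than 2-fold, and the letters were not found in their promoters. Whether the letters go with a rise was not tested. They run 5′ to 3′ on the strand of the gene and end at the base before the gene start, and capitals mark the match.

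Asns, chr6:7693210-7693459, minus strand: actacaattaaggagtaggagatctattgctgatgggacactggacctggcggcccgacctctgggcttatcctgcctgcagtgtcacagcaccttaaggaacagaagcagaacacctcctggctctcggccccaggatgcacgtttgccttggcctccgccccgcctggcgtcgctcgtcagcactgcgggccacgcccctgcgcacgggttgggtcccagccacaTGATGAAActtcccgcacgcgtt
Atf3, chr1:191183334-191183583, minus strand: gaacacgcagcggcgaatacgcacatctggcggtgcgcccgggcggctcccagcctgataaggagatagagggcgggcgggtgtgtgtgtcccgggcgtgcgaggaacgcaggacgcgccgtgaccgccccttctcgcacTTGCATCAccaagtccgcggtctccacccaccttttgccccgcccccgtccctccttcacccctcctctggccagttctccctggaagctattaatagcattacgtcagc
Chac1, chr2:119350992-119351241, plus strand: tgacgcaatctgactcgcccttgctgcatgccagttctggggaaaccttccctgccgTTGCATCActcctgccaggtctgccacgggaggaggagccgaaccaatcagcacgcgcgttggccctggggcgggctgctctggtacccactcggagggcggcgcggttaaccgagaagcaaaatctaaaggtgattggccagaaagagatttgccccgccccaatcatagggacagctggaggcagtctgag

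The match starts 23 bases before the start of Asns and reads TGATGAAA. In Atf3 it starts 110 bases and in Chac1 193 bases before the gene start, and both read TTGCATCA, which is the element on the opposite strand. The cyclic AMP response element TGACGTCA, which ATF and CREB proteins bind, was found in 1 gene, Ppp1r15a, 12 bases before the start, and in 1.77% of all genes. The AP-1 letters TGANTCA were found in 1 gene, Ddit3, 242 bases before the start, and in 7.82% of all genes. A match of letters is a description, and a promoter without one lacks these letters in that window only.

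After background correction and quantile normalisation, signals were taken to log2, on which 1 unit is a doubling. With 1 array per group there is no replicate and no test, and every difference below compares 2 arrays. Repeated spots of 1 probe within an array vary by an amount that makes the SD of a log2 difference 0.17. This leaves out the variation between mice and cultures. It comes from probes with at least 5 spots, while each probe of the 10 genes had 1 spot. A gene with several probes is represented by its brightest probe, and signals of different probes are not compared with each other. A total RNA signal of a cell population cannot tell more RNA per cell from more cells that express the gene.

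The 3 targeted genes were checked first. Nr4a1 read 7.05 on the WT naive T array and 8.39 on the array labelled Nr4a-TKO naive T, and 11.34 and 11.82 on the iTreg arrays of WT and Nr4a-TKO. Nr4a2 and Nr4a3 were likewise well above background on all 4 arrays. At 3 h both probes of Nr4a2 read higher in cells labelled Nr4a-TKO than in WT, with log2 differences of 1.37 and 1.38, which goes against the label. Of the 3 probes of Nr4a3, 2 read lower in iTreg 3 h cells labelled Nr4a-TKO than in WT, with log2 differences of -1.86 and -1.47. A probe outside the deleted part of a gene does not check the knockout, so the genotype is taken from the labels, and every Nr4a-TKO value below is that of an array labelled so. The 4 measured of 5 CD4 T cell markers were well above background on every array, at 9.39 or higher. All 6 activation markers were more than 2-fold higher on the iTreg array than on the naive array in each genotype. All 5 B cell markers were also above background, with a summed signal between 9.05 and 9.93. Both CD8 T cell markers were too, with a summed signal between 6.22 and 7.15. The 4 myeloid markers had a summed signal between 15.08 and 15.28, most of it from Itgam. Of these, Itgam read between 14.98 and 15.14 and Csf1r between 11.16 and 11.76. Lyz2 read between 3.79 and 4.27. It was not well above background on Nr4a-TKO naive T, nor was Cd14 on WT iTreg 3 h. Of 4 erythroid markers 3 were well above background on each array, and Hbb-b1 was not on any. Signals of different probes are not compared, so these sums give no share of a cell type. The part of other cell types in the values below was not tested.

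From naive T to iTreg 3 h, 6 of the 10 genes were more than 2-fold higher in WT cells, namely Atf3, Atf5, Trib3, Asns, Sesn2 and Chac1. The background was 8.45% of 23172 genes tested. In Nr4a-TKO cells 5 of the 10 were more than 2-fold higher, the same genes without Sesn2, against 7.84% of 23648 genes tested. None of the 10 was more than 2-fold lower in WT, where the background was 8.59%, or in Nr4a-TKO, where it was 8.02%. The 10 genes had a median log2 difference of 1.56 in WT and 1.09 in Nr4a-TKO. Over all genes tested the median was -0.05 and -0.02. The 10 genes were chosen with earlier results of these data known, so setting them beside the background is a description only. The other 4 genes, Atf4, Ddit3, Ddit4 and Ppp1r15a, had differences between -0.62 and 0.71 in WT.

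**Figure D1:**
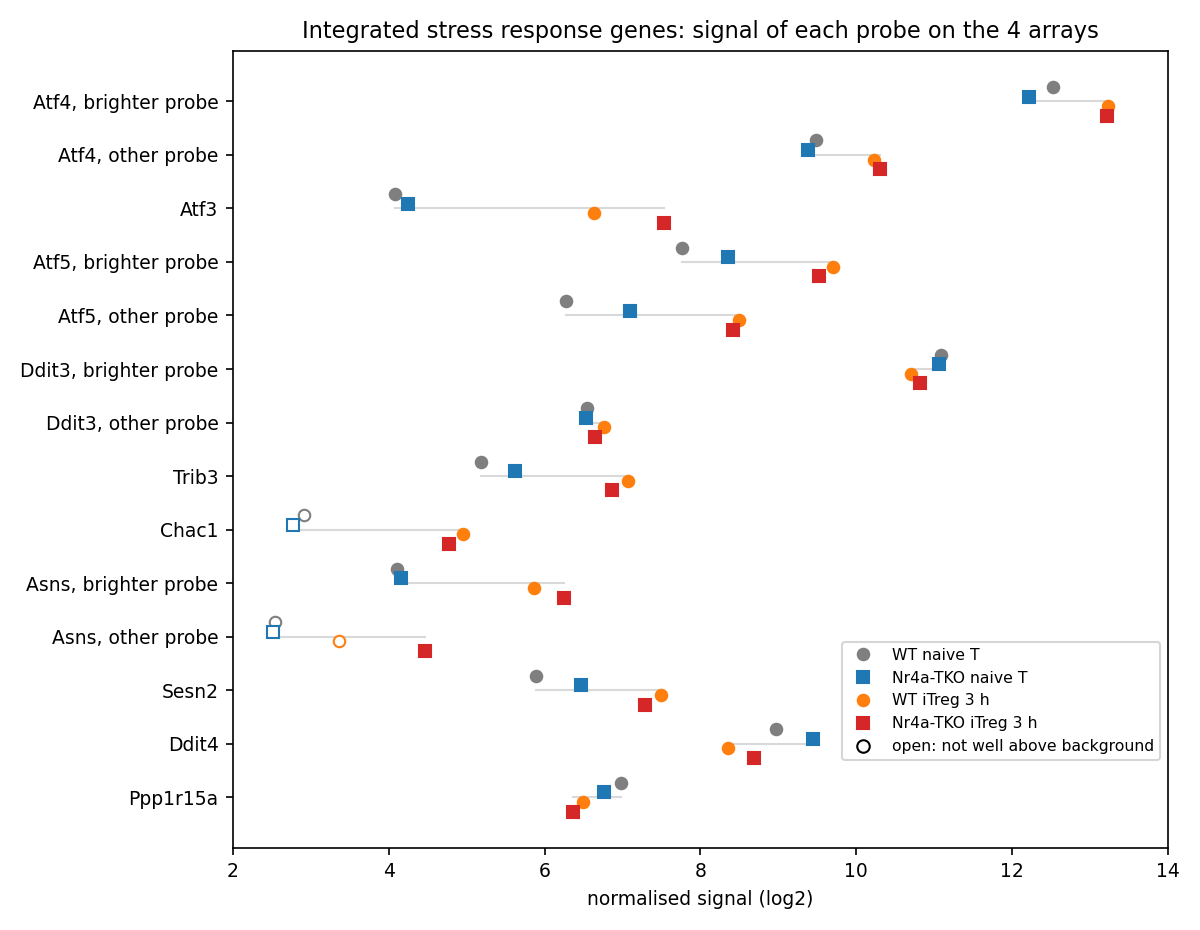
Normalised log2 signal (x axis) of each of the 14 probes of the 10 genes (rows) on the 4 arrays, 1 point per array, with open symbols where the probe was not well above background. The iTreg points lie to the right of the naive points for Atf4, Atf3, Atf5, Trib3, Chac1, Asns and Sesn2, and to the left for Ddit4, Ppp1r15a and the brighter Ddit3 probe.

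Atf4 itself encodes the central transcription factor of the response. Its brighter probe (NM_009716, chr15:80087902-80087961 on mm9) read 12.52 on WT naive T, 12.22 on Nr4a-TKO naive T, 13.23 on WT iTreg 3 h and 13.22 on Nr4a-TKO iTreg 3 h. The iTreg arrays were higher than the naive arrays by 0.71 in WT, which is 1.63-fold, and by 1.00 in Nr4a-TKO, which lies at the 2-fold threshold and did not exceed it. The other probe of Atf4 (chr15:80087079-80087138) read 9.49, 9.38, 10.23 and 10.30 in the same order of arrays, with differences of 0.74 in WT and 0.92 in Nr4a-TKO. On either probe both iTreg arrays lay above both naive arrays. With 75th percentile scaling of processed intensities, the stage difference of the brighter probe in Nr4a-TKO was 1.08, past 2-fold.

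Atf3 encodes a stress-induced bZIP factor that is also an early gene of many stimuli. It had the largest rise of the 10 genes in each genotype, except that Atf5 rose more in WT with an offset of 50 in the background correction or without that correction. Its probe (NM_007498, chr1:192994547-192994606 on mm9) read 4.08 on WT naive T and 4.24 on Nr4a-TKO naive T, and 6.64 on WT iTreg 3 h and 7.53 on Nr4a-TKO iTreg 3 h. The difference between stages was 2.56, or 5.89-fold, in WT, above that of 99.3% of genes tested. In Nr4a-TKO it was 3.29, or 9.76-fold, above that of 99.8% of genes tested. With the offset of 50, which pulls low signals together, these rises were 1.16 and 1.77, and with 75th percentile scaling of processed intensities 3.09 and 3.69. The rise of Atf5 in WT was 1.72 with that offset. Without background correction, Atf3 and Atf5 rose by 1.78 and 1.82 in WT.

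Atf5 encodes a relative of ATF4 whose mRNA is also under translational control and which is known for the response to unfolded proteins in mitochondria. Its brighter probe (NM_030693, chr7:52067627-52067686 on mm9) read 7.77 on WT naive T, 8.35 on Nr4a-TKO naive T, 9.70 on WT iTreg 3 h and 9.53 on Nr4a-TKO iTreg 3 h. The stage difference was 1.93 in WT and 1.17 in Nr4a-TKO. The other probe (chr7:52067718-52067777) read 6.27, 7.09, 8.50 and 8.42 in the same order, with stage differences of 2.23 and 1.33. On either probe the WT naive T array was the lowest and the iTreg arrays lay close together.

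Ddit3 encodes CHOP, a bZIP factor linked to cell death under lasting stress, and its probes disagreed in direction. The brighter probe, designed on an Ensembl transcript (chr10:126731579-126731638 on mm9), read 11.09 on WT naive T, 11.07 on Nr4a-TKO naive T, 10.70 on WT iTreg 3 h and 10.82 on Nr4a-TKO iTreg 3 h. Its stage differences were -0.39 in WT and -0.25 in Nr4a-TKO. The probe for the RefSeq transcript NM_007837 (chr10:126732518-126732821) read 6.54, 6.53, 6.77 and 6.65, which is higher by 0.23 and 0.12. In the scanner's processed intensity, before any scaling between arrays, the brighter probe read between 1809 and 1947 on the 4 arrays. No direction is given for Ddit3, whose stage differences were 1.31-fold or less on either probe.

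Of the feedback genes of the response, Trib3 rose and Ppp1r15a stayed within 2-fold. Trib3 encodes a pseudokinase that binds ATF4 and restrains it. Its probe (NM_175093, chr2:152163161-152163220 on mm9) read 5.18 on WT naive T, 5.62 on Nr4a-TKO naive T, 7.07 on WT iTreg 3 h and 6.87 on Nr4a-TKO iTreg 3 h. The rise was 1.89, or 3.71-fold, in WT and 1.25, or 2.37-fold, in Nr4a-TKO. With an offset of 50 in the background correction it was 1.097 in WT and 0.75 in Nr4a-TKO, the latter under 2-fold. Ppp1r15a encodes GADD34, which brings a phosphatase to eIF2 and so ends the response. Its probe (NM_008654, chr7:52778320-52778379 on mm9) read 6.98, 6.76, 6.49 and 6.37 in the same order of arrays. It was lower on the iTreg array by 0.49 in WT and by 0.39 in Nr4a-TKO, within 2-fold.

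Of the effectors, Asns encodes asparagine synthetase, which makes asparagine from aspartate. Its brighter probe (NM_012055, chr6:7625171-7625228 on mm9) read 4.10 on WT naive T, 4.15 on Nr4a-TKO naive T, 5.86 on WT iTreg 3 h and 6.26 on Nr4a-TKO iTreg 3 h. The iTreg array was higher by 1.76, or 3.38-fold, in WT and by 2.10, or 4.29-fold, in Nr4a-TKO. With the offset of 50 these fell under 2-fold, to 0.69 and 0.90. The other probe (chr6:7626110-7626255) was well above background only on the Nr4a-TKO iTreg 3 h array, at 4.46, and read 2.54 on WT naive T, 2.51 on Nr4a-TKO naive T and 3.36 on WT iTreg 3 h. With its naive signal raised to the lowest one well above background there, this probe was at least 2.13-fold higher in Nr4a-TKO iTreg 3 h.

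Chac1 encodes an enzyme that breaks down glutathione and is a known target of ATF4. Its probe (NM_026929, chr2:119179990-119180049 on mm9) was not well above background on the naive arrays, where it read 2.91 in WT and 2.77 in Nr4a-TKO. It was well above background on the iTreg arrays, at 4.95 in WT and 4.77 in Nr4a-TKO. The iTreg array was at least 2.84-fold higher than the naive array in WT and at least 2.65-fold higher in Nr4a-TKO, with the naive signal raised to that array's lowest value well above background, 3.45 and 3.37. With the offset of 50 the log2 differences were 0.41 and 0.36, and without background correction 0.62 and 0.57, under 2-fold.

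Sesn2 and Ddit4 both encode stress-induced inhibitors of the growth kinase mTORC1, and of these Sesn2 rose more than 2-fold in WT, while Ddit4 stayed within 2-fold. Sesn2, also a sensor of leucine (NM_144907, chr4:132048858-132048917 on mm9), read 5.89 on WT naive T, 6.47 on Nr4a-TKO naive T, 7.49 on WT iTreg 3 h and 7.29 on Nr4a-TKO iTreg 3 h. It was higher on the iTreg array by 1.61, or 3.05-fold, in WT and by 0.82, or 1.77-fold, in Nr4a-TKO. Ddit4, also known as REDD1 (NM_029083, chr10:59412486-59412545 on mm9), read 8.97 on WT naive T, 9.45 on Nr4a-TKO naive T, 8.35 on WT iTreg 3 h and 8.69 on Nr4a-TKO iTreg 3 h. It was lower on the iTreg array by 0.62 in WT and by 0.75 in Nr4a-TKO, within 2-fold.

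**Figure D2:**
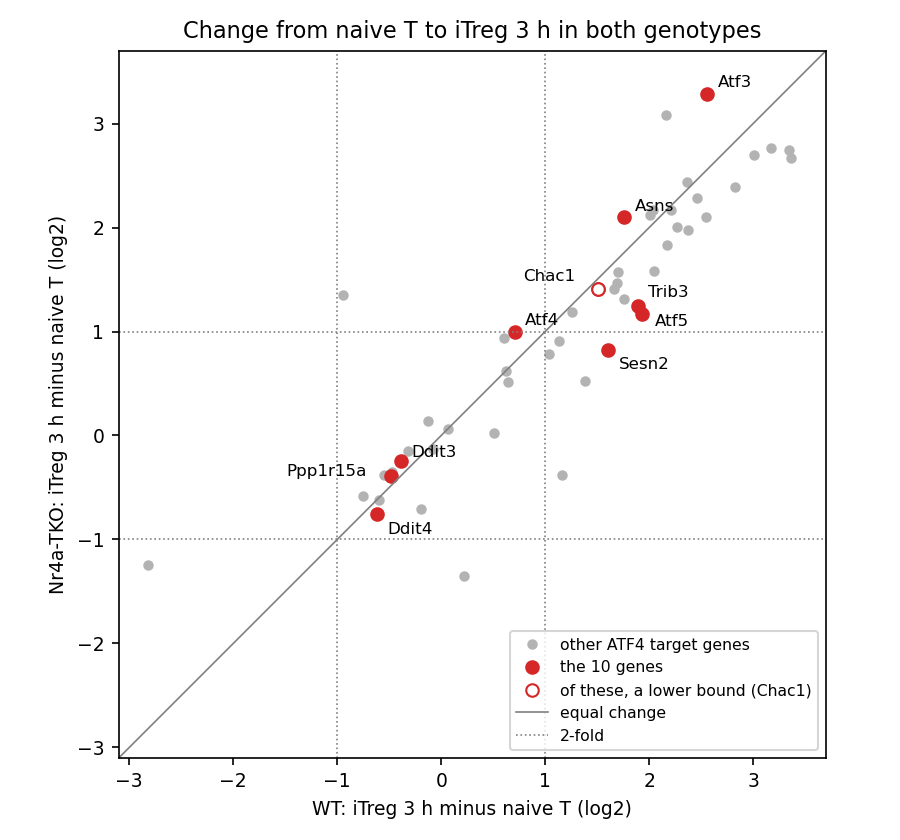
Log2 difference between iTreg 3 h and naive T in WT (x axis) and in Nr4a-TKO (y axis), 1 point per gene, for the 10 genes (red) and the other ATF4 target genes (grey). Atf3 at 2.56 and 3.29 and Asns at 1.76 and 2.10 lie above the line of equal change, and Atf5, Trib3 and Sesn2 lie below it. The open symbol, Chac1, is a lower bound on both axes.

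Between the genotypes at the naive stage, none of the 9 genes with a value, all but Chac1, was more than 2-fold higher in Nr4a-TKO, against a background of 1.92% of 23082 genes tested, and none was more than 2-fold lower, against 1.69%. The median difference of the 9 genes was 0.16, and that of all genes -0.02. Atf5, Sesn2, Ddit4 and Trib3 were higher on the Nr4a-TKO array by 0.59, 0.58, 0.48 and 0.44. Each was more than the SD of 0.17 of a difference between repeated spots. For Atf5 and Sesn2 the difference was above that of 94.9% and 94.8% of genes tested. Atf4 was lower on the Nr4a-TKO array by 0.30, and its other probe was lower by 0.11. Asns, at 0.05, and Atf3, at 0.16, lay within the spread of repeated spots. With an offset of 50 in the background correction, the naive differences of Atf5, Sesn2, Ddit4 and Trib3 were 0.49, 0.34, 0.44 and 0.20.

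At 3 h, none of the 10 genes was more than 2-fold higher in Nr4a-TKO than in WT, against a background of 1.75% of 23411 genes tested, and none was more than 2-fold lower, against 1.93%. The median of the 10 genes was -0.07 and that of all genes 0.00. Atf3 had the largest difference, 0.89 or 1.85-fold higher in Nr4a-TKO, above that of 97.8% of genes tested. Asns was higher in Nr4a-TKO by 0.40 on its brighter probe and at least 2.04-fold higher on its other probe, which was not well above background on the WT array. Ddit4 was higher by 0.34. All 5 B cell markers also read higher in Nr4a-TKO on these arrays, by 0.07 to 1.14, and their part in these values was not tested. Atf5, Chac1, Sesn2 and Trib3 lay between -0.21 and -0.17, and Atf4, at -0.01, read the same on both arrays to within the spread of repeated spots.

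**Figure D3:**
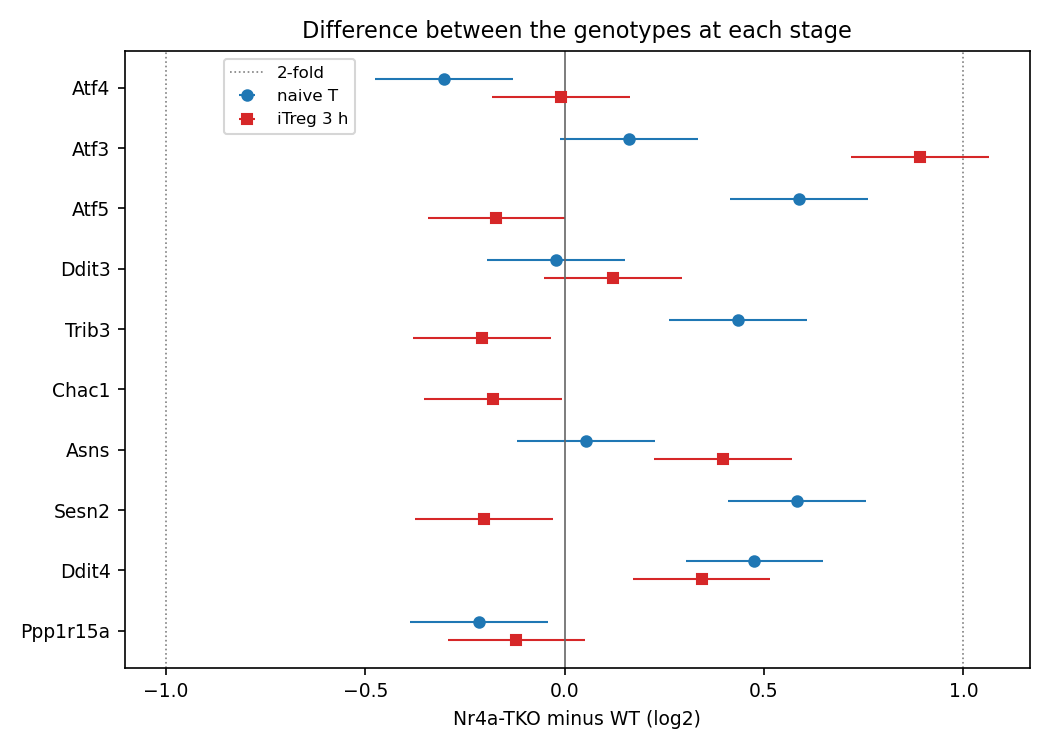
Log2 difference between Nr4a-TKO and WT (x axis) for each of the 10 genes (rows) in naive T (circles) and at iTreg 3 h (squares), from 1 array each. Bars are the SD of 0.17 of a difference between repeated spots and not an error between mice. Atf5, Trib3 and Sesn2 lie at 0.44 or more in naive T and below 0 at 3 h, Atf3 lies at 0.89 at 3 h, and Chac1 has no naive value.

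The change of Nr4a-TKO minus the change of WT was within 2-fold for all 10 genes. Over 22181 genes with both changes, this value was above 1 in 2.44% and below -1 in 2.38%. Its median was -0.00 over the 10 genes and 0.02 over all genes. The 10 genes lay on both sides of that median. The value was -0.78 for Sesn2, -0.76 for Atf5 and -0.64 for Trib3, values below which 4.08%, 4.39% and 6.06% of all genes lay. It was 0.73 for Atf3 and 0.34 for Asns. For Sesn2, Atf5 and Trib3 most of this value lay in the naive arrays, where Nr4a-TKO was higher by 0.58, 0.59 and 0.44, and less in the iTreg arrays, where it was lower by 0.20, 0.17 and 0.21. For Atf3 most of it lay in the iTreg arrays. The other probe of Atf5 gave -0.90. With the mean over its probes in place of the brightest, the value of Asns turned to -0.16. All 4 arrays enter this value once each, so no error between cultures can be given for it.

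The wider pathway was read from lists of other genes. The lists were chosen with earlier results of these data known. Setting their counts beside the shares over all genes is therefore a description only. Of 43 other ATF4 target genes, 41 had a value in WT, and 25 of these rose and 1 fell by more than 2-fold at 3 h, against 8.45% and 8.59% of all genes, with a median of 1.38. In Nr4a-TKO 22 of 42 were higher and 2 lower, against 7.84% and 8.02%, with a median of 1.25. The genes higher in both genotypes numbered 21, which is 84.0% of those in WT and 95.5% of those in Nr4a-TKO. The same overlap was not counted over all genes, so it is not read as particular to this list. The largest rises in WT were Shmt2 at 3.36, Psat1 at 3.35 and Eif4ebp1 at 3.17, which encode enzymes of one-carbon and serine synthesis and a repressor of cap-dependent translation. Their rises in Nr4a-TKO were 2.66, 2.74 and 2.77. Rhob, a small GTPase, was the gene more than 2-fold lower in WT, by 2.82, and was lower by 1.24 in Nr4a-TKO.

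Grouped by function after their values were known, all 10 aminoacyl-tRNA synthetases of that list, which load amino acids onto tRNAs, were more than 2-fold higher at 3 h in WT and 8 of the 10 in Nr4a-TKO. The 5 enzymes of serine and one-carbon metabolism were more than 2-fold higher in each genotype. Of the amino acid transporters, 3 of 7 measured were more than 2-fold higher in WT and 3 of 8 in Nr4a-TKO. The background for all 3 groups was 8.45% in WT and 7.84% in Nr4a-TKO. Because the groups were formed with the values known, setting them beside this background is a description only. Among the other transporters, Slc3a2 read between 16.44 and 16.52 and Slc1a4 between 15.17 and 15.30 on the 4 arrays. Whether probes this bright can show a rise was not tested. Slc7a11 was well above background on Nr4a-TKO naive T only. Asns, the amino acid enzyme among the 10 genes, read 1.76 in WT, against a median of 2.36 for the enzymes of serine and one-carbon metabolism.

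Between the genotypes at 3 h, none of the 41 measured other ATF4 target genes was more than 2-fold higher in Nr4a-TKO and 1, Gdf15, was more than 2-fold lower, by 1.03, against 1.75% and 1.93% of all genes. The median was -0.19, against 0.00 over all genes, and 30 of the 41 genes read lower in Nr4a-TKO. The share of all genes that read lower was not counted, so this count is not read as particular to the list. On the same arrays all 5 B cell markers read higher in Nr4a-TKO, with a median of 0.47. Of the 4 CD4 T cell markers 3 read lower, with a median of -0.19. The part of these markers' cells in the values of the list was not tested. All 5 enzymes of serine and one-carbon metabolism lay between -0.41 and -0.23, and 9 of the 10 synthetases lay below 0. These groups were formed with the values known, so this is a description only. Atf3 and Asns, at 0.89 and 0.40, lay on the other side. In naive T the median of the same list was -0.05, and 1 gene, Lonp1, was more than 2-fold lower in Nr4a-TKO, by 2.21, against 1.69% of all genes. The change of Nr4a-TKO minus that of WT was below -1 for Gdf15, at -1.57, and Fgf21, at -1.54, and above 1 for Lonp1, at 2.29, and Rhob, at 1.58. Gdf15 and Fgf21 encode secreted factors of the stress response, and their signals, between 3.34 and 5.30 on the 4 arrays, lay close to the lowest values well above background, which were between 3.07 and 3.45.

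**Figure D4:**
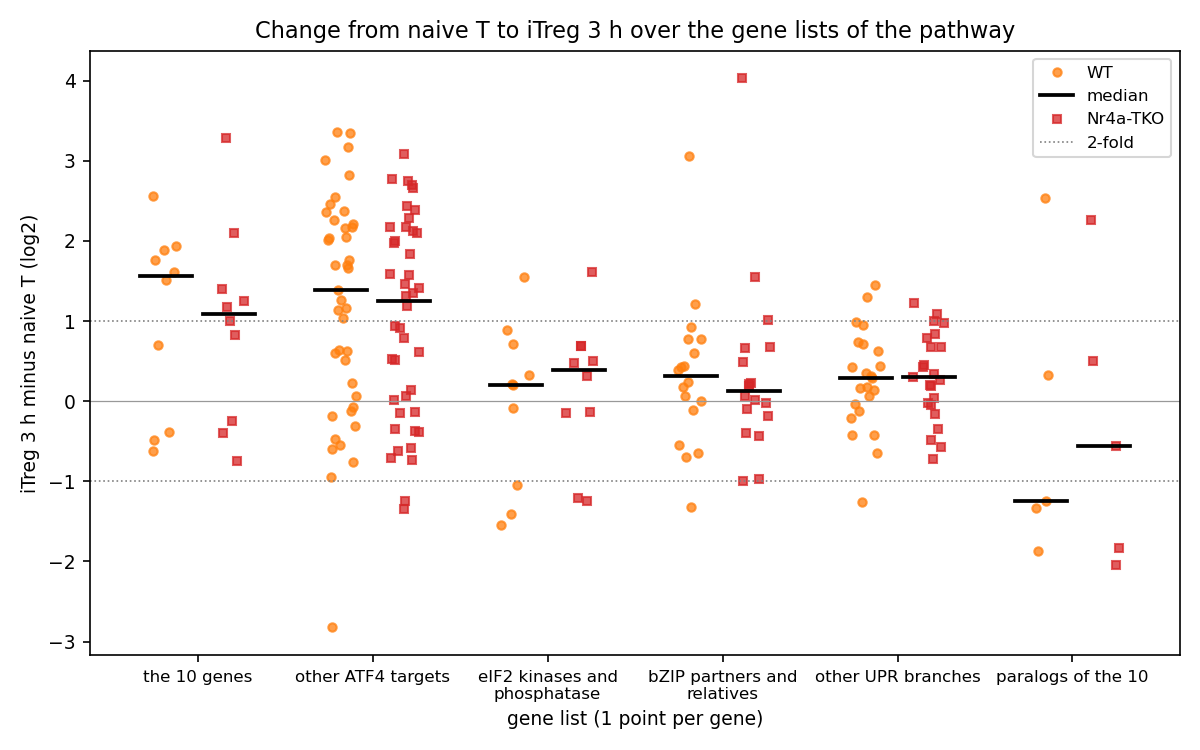
Log2 difference between iTreg 3 h and naive T (y axis) of each gene with a value in the 6 gene lists (x axis), in WT (circles) and Nr4a-TKO (squares), with the median of each list as a bar. UPR stands for unfolded protein response. The medians of the 10 genes, 1.56 and 1.09, and of the other ATF4 targets, 1.38 and 1.25, lie above the upper 2-fold line. Those of the other lists lie below that line, and the WT median of the paralogs, -1.25, lies past the lower 2-fold line. Lower bounds are drawn at the bound.

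Upstream of ATF4, 10 genes of the eIF2 kinases, their regulators and the phosphatase were measured. In WT, 1 rose and 3 fell by more than 2-fold at 3 h, and in Nr4a-TKO the counts were 1 and 2. The shares over all genes were 8.45% and 8.59% in WT and 7.84% and 8.02% in Nr4a-TKO, so that 1 gene of 10 lies near them. Eif2s1, the subunit of eIF2 that the kinases phosphorylate, was higher by 1.55 in WT and 1.61 in Nr4a-TKO. Eif2ak2, the kinase PKR that senses double-stranded RNA, was lower by 1.54 and 1.20, and Dnajc3, an inhibitor of eIF2 kinases, was lower by 1.41 and 1.25. Eif2ak3, the kinase PERK of the endoplasmic reticulum, read 4.61 on WT naive T, 4.80 on Nr4a-TKO naive T, 3.56 on WT iTreg 3 h and 4.65 on Nr4a-TKO iTreg 3 h. The WT iTreg array was thus the low one, by 1.05 against WT naive T and by 1.08 against Nr4a-TKO iTreg 3 h. Both differences rest on that 1 signal, which lay close to the array's lowest value well above background, 3.43. Eif2ak4, the kinase GCN2 that senses missing amino acids, had differences of 0.88 in WT and 0.69 in Nr4a-TKO. Those of Eif2ak1, the haem-regulated kinase, were 0.20 and 0.47. Ppp1r15b, the constitutive counterpart of Ppp1r15a, differed by 0.33 and 0.50.

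Among 18 measured bZIP partners and relatives of ATF4, 2 rose and 1 fell by more than 2-fold at 3 h in WT, and 3 and 0 did so in Nr4a-TKO. In WT these counts lie near the shares over all genes, 8.45% and 8.59%, and in Nr4a-TKO those shares were 7.84% and 8.02%. Crem, a factor of the cyclic AMP response, had the largest difference, 3.05 in WT and 4.03 in Nr4a-TKO. The partners that join ATF4 on the composite element differed less, with 0.77 in WT and 0.22 in Nr4a-TKO for Cebpb and 0.18 and 0.06 for Cebpg. Creb3, which sits in the endoplasmic reticulum until cleaved, was lower by 1.33 in WT and 0.99 in Nr4a-TKO. Between the genotypes Creb3 was lower in Nr4a-TKO by 1.39 in naive T and by 1.05 at 3 h, and its relative Creb3l2 was higher at 3 h by 1.68.

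Of the other branches of the unfolded protein response, 23 of 25 genes were measured. In WT 2 rose and 1 fell by more than 2-fold at 3 h, and in Nr4a-TKO 3 and 0 did so, with medians of 0.29 and 0.30. The shares over all genes were 8.45% and 8.59% in WT and 7.84% and 8.02% in Nr4a-TKO, near these counts. The chaperones Hyou1 and Canx were higher by 1.45 and 1.31 in WT and by 1.22 and 1.09 in Nr4a-TKO. Hspa5, the chaperone BiP, was higher by 0.99 and 0.98. The sensors and their factor differed less, with 0.63 and 0.79 for Ern1, 0.42 and 0.67 for Xbp1, and 0.07 and 0.19 for Atf6. No gene of this list differed more than 2-fold between the genotypes at either stage, where the medians were -0.05 in naive T and 0.03 at 3 h. Over all genes, 1.92% were more than 2-fold higher and 1.69% lower in naive T, and 1.75% and 1.93% at 3 h. With shares this low, a lack of such genes among 23 is near the background.

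Paralogs of the 10 genes differed in direction. Trib1 was higher at 3 h by 2.54 in WT and 2.27 in Nr4a-TKO, as was Trib3, while Trib2 had differences of -1.25 and -0.56. Sesn1 and Sesn3 were lower by 1.87 and 1.33 in WT and by 2.04 and 1.84 in Nr4a-TKO, where Sesn2 was higher by 1.61 and 0.82. Ddit4l and Chac2 were not well above background on any array.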

How the data were processed

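For each array the authors deposited scanner output of Agilent Feature Extraction 11.5.1.1 with the mean intensity of every spot, the intensity of its local background and a processed intensity. A deposited table of log2 values proved to be the processed intensity scaled to each array's 75th percentile, although the methods name RMA.

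R 4.3.3 with limma 3.58.1 and version 1.17.8 of data.table was used for steps that follow RMA: normexp on mean and local background intensity with an offset of 0, quantile normalization over the 4 arrays, log2 and the mean over spots of a probe. Control spots and 115 to 160 outlier spots per array were left out. Each array held 62976 spots, no spot other than the controls, which were not counted, was saturated, and 64.9% to 67.6% of probes were well above background. The number of arrays limits the precision. Later steps used Python 3.11.15, pandas 2.3.3, numpy 2.4.6 and matplotlib 3.10.9. Probes were named through the RefSeq table of GRCm38.p6, used for names and promoters, while probe coordinates are those of the files, on mm9. Where 1 of the 2 arrays compared was not well above background, its value was raised to that array's lowest value well above background. A gene counted as higher or lower past 2-fold.

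The members and the gene lists were chosen with earlier results of these data known. Named genes were the 10 members on every probe, up to 3 genes per list and direction past 2-fold, and the regulators of the pathway. Alternatives were 75th percentile scaling of processed intensities, an offset of 50, uncorrected intensities, the deposited log2 values, all probes averaged, both arrays above background, no filter on dim probes, and thresholds of 1.5-fold and 3-fold. The counting step alone was tried on simulated data, with changes well past 2-fold and every probe above background. That trial does not cover the normalization, the rule for dim probes or the variation between cultures.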

Additional observations from a re-analysis of the deposited data

How the results depend on the processing

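The counts of the 10 genes past 2-fold stayed within 1.5 times of the values given, and their medians within the spread of repeated spots, except as follows. A normexp offset of 50, which pulls low signals together, lowered the median stage difference of the 10 genes to 0.69 in WT and 0.66 in Nr4a-TKO, and the count of genes more than 2-fold higher in Nr4a-TKO to 2. Without background correction the medians were 0.89 and 0.83. The median difference between the genotypes in naive T was 0.34 with 75th percentile scaling of processed intensities and 0.34 with the deposited values. With a threshold of 3-fold, 2 genes were higher at 3 h in Nr4a-TKO. With a threshold of 1.5-fold, 1 gene was lower at 3 h in WT, 1 was lower in Nr4a-TKO, 1 was higher in Nr4a-TKO among naive arrays, and 1 was higher in Nr4a-TKO at 3 h. Of the 49 differences of single genes, 41 kept their sign and 43 their side of the 2-fold threshold under every alternative that gave a value, and none past 2-fold turned its sign. With the offset of 50, the rises of Asns and Chac1 in both genotypes and of Trib3 in Nr4a-TKO came under 2-fold, as did those of Chac1 without background correction. Chosen after the data were seen, the RefSeq probe of Ddit3 and differences relative to the median of all genes were also tried. The other ATF4 targets more than 2-fold higher numbered 22 to 25 in WT and 18 to 25 in Nr4a-TKO over the alternatives that kept the 2-fold threshold, and those lower 0 to 3 in Nr4a-TKO. Small counts of the other lists moved more: bZIP relatives higher 1 to 4 in WT and 1 to 3 in Nr4a-TKO and lower 0 to 2 in Nr4a-TKO. Genes of the other branches that were higher numbered 2 to 4 in WT and 1 to 5 in Nr4a-TKO. Lower eIF2 genes numbered 2 to 3 in WT and 1 to 2 in Nr4a-TKO. No paired analysis was possible because each group has 1 array. Low signals such as those of Atf3, Asns and Chac1 in naive T limit how well a fold can be known.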
